A study of Mus musculus with 12 samples.

Results

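The collagen gene family comprised 44 of the 33531 gene symbols in the deposited expression table, taken as every symbol made of Col, a number, the letter a and a number. Of these, 29 had at least 3 libraries with an FPKM no lower than 1 and were tested, and 15 did not. FPKM, fragments per kilobase of transcript scaled to the mapped fragments of the library, is corrected for transcript length, so levels can be set side by side between genes. The RNA came from large arteries (dorsal aorta, vitelline and umbilical) of mouse embryos at embryonic day 11.5, 122 embryos in all. Females that were C57BL/6 x 129S1/SVImJ F1 had been crossed with Tg(Ly6a-GFP) males, and the strain label is B6129S. All embryos carried the transgene, in which Ly6a regulatory sequence drives GFP, so GFP marks reporter activity and not the stem cell antigen itself. Arteries were dissociated with collagenase, which digests deposited collagen and leaves RNA as the only readout here, and cells were sorted and pooled into 3 biological samples per population.

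The 4 populations were GFP+ hematopoietic cluster cells (HC GFP+), GFP- hematopoietic cluster cells (HC GFP-), GFP+ endothelial cells (EC GFP+) and GFP- endothelial cells (EC GFP-). Cluster cells were sorted as positive for the endothelial surface proteins CD31, CD144 and ESAM and for c-Kit, and endothelial cells as positive for the same endothelial proteins without c-Kit. The sorts gave 53000 HC GFP+, 413000 HC GFP-, 377000 EC GFP+ and 791000 EC GFP- cells. Pecam1, which encodes CD31, had group means of 236 FPKM or more in every population. Kit, which encodes c-Kit, averaged 35.5 FPKM in HC GFP+, 21.4 in HC GFP-, 14.0 in EC GFP+ and 16.3 in EC GFP-. Its RNA was thus also present in the populations sorted without c-Kit. Ptprc, the leukocyte antigen CD45, averaged 10.3 ± 2.69 FPKM in HC GFP+, 5.53 ± 2.55 in HC GFP-, 0.474 ± 0.168 in EC GFP+ and 0.0922 ± 0.111 in EC GFP- (SD, n = 3 each). Not all 10 listed blood markers followed this order. Itga2b averaged 9.08, 6.80, 11.1 and 10.9 FPKM in the same populations, and Gata1 0.906, 1.78, 1.21 and 1.83 FPKM. By the test described below, 8 of the 10 were higher and 0 lower in HC GFP+ than in EC GFP+. In HC GFP- against EC GFP- these counts were 5 and 0. Over all tested genes, 8.21% and 2.36% were higher in these comparisons. FPKM summed to 555675 to 691948 per library, with 12147 to 12779 genes at FPKM 1 or more. FPKM keeps no read number, so the depth behind these values is unknown.

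Collagens are secreted or membrane proteins built from chains that wind into a triple helix. Types I, III and V form the fibrils of connective tissue and are made mainly by fibroblasts and other mesenchymal cells. Type IV forms the sheet-like network of basement membranes, on which endothelium rests, and the chains of Col4a1 and Col4a2 assemble together. Types XV and XVIII, the multiplexins, are basement membrane collagens with proteoglycan character, and a fragment of collagen XVIII is endostatin, an inhibitor of vessel growth. Chains are hydroxylated in the endoplasmic reticulum, folded with the help of dedicated chaperones, trimmed outside the cell by proteinases and crosslinked.

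The family was led by the basement membrane and multiplexin collagens. Averaged over the 12 libraries, Col18a1 stood at 472 FPKM and Col4a1 at 455 FPKM, ranks 164 and 167 among all genes, followed by Col4a2 at 276 FPKM. Only 4 further members averaged 100 FPKM or more, namely the fibrillar genes Col1a1, Col3a1 and Col1a2 at 167, 150.2 and 122 FPKM and the multiplexin Col15a1 at 134 FPKM. Collagen transcripts took 0.228% to 0.297% of the summed FPKM in HC GFP+ libraries, 0.282% to 0.379% in HC GFP-, 0.365% to 0.453% in EC GFP+ and 0.296% to 0.374% in EC GFP-. All 12 libraries held 23 of the 44 members at FPKM 1 or more.

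**Figure D1:**
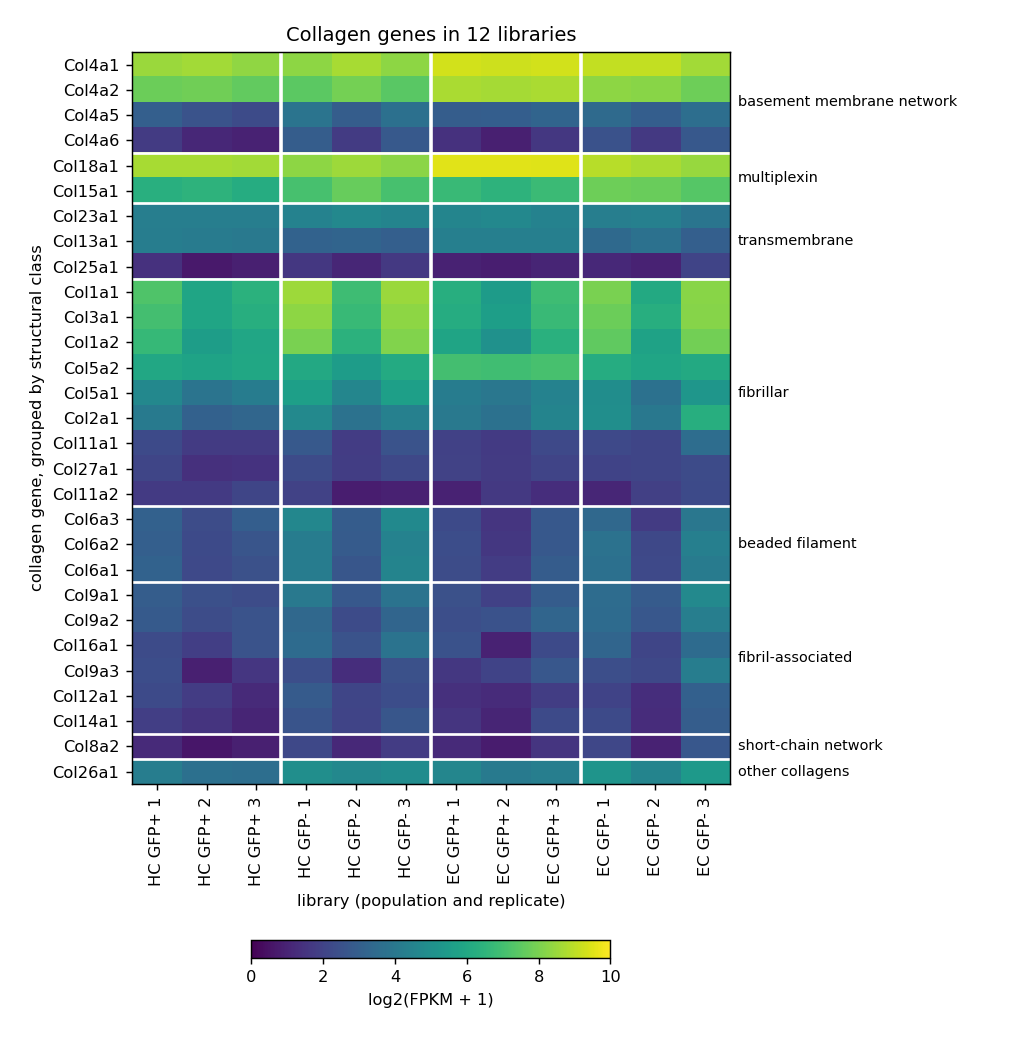
Heat map of log2(FPKM + 1) for the 29 tested collagen genes (rows, grouped by structural class) in the 12 libraries (columns, 3 per population). Col4a1, Col4a2 and Col18a1 are bright in every library, and most fibrillar rows and all beaded filament rows are darker in replicate 2 of HC GFP- and EC GFP- than in replicates 1 and 3.

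Among the 15 members that were not tested, 13 never reached FPKM 1 and 8 were listed at 0 in at least 1 library. They include Col4a3 and Col4a4, the type IV chains of mature kidney basement membrane, Col10a1 of growth cartilage, Col7a1 of skin anchoring fibrils and Col17a1 of epithelial hemidesmosomes. The exceptions were Col24a1, a minor fibrillar collagen, with 5.90 FPKM in EC GFP- replicate 3 and 1.92 FPKM in HC GFP- replicate 3, and Col22a1, with 1.22 FPKM in HC GFP- replicate 3 and 1.06 FPKM in EC GFP+ replicate 3.

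GFP+ and GFP- cells were first compared within the endothelium, with limma on log2(FPKM + 1) and Benjamini-Hochberg adjustment over all 13278 tested genes at a threshold of 0.05. In EC GFP+ cells 4 collagen genes were higher, Col18a1, Col5a2, Col13a1 and Col4a2, and 1 was lower, Col15a1. That is 5 of 29 tested members, where 13.5% of all tested genes passed the same threshold, 6.96% as higher and 6.51% as lower. The median log2 fold change was -0.71 over the tested members and -0.03 over all tested genes. Without EC GFP- replicate 2, 15 members were called, 5 higher and 10 lower, where 2206 of 13210 tested genes passed in either direction. The members added as lower were Col1a1, Col1a2, Col2a1, Col3a1, Col4a6, Col6a2, Col8a2, Col9a1 and Col26a1, and Col23a1 was added as higher. A fold change on this scale understates the change of genes near FPKM 1. The same comparison in cluster cells gave 1 higher member, Col13a1, and 2 lower members, Col15a1 and Col26a1, where 4.26% of all tested genes passed, 2.98% as higher and 1.28% as lower. There the median log2 fold change was -0.81 over the tested members and 0.00 over all genes. In these bulk samples, fewer cells of a type and less RNA per cell cannot be told apart.

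Col18a1 and Col15a1 are the only members of the multiplexin class, and in endothelium they changed in opposite directions. The upstream sequence of Col18a1 is shown first because the gene has the highest level of the family in EC GFP+ cells, beside those of Col13a1, the member called higher in GFP+ cells of both types, and of Col3a1, a fibrillar gene that was not called. The stretches come from the RefSeq promoter table of build GRCm38.p6, in which 35 of the 44 members matched, and are cut to the bases outside annotated genes within the 250 bases before the first listed start. They are Col18a1 at chr10:77166549-77166780 (minus strand, 232 bases), Col13a1 at chr10:61979207-61979358 (minus strand, 152 bases) and Col3a1 at chr1:45311288-45311537 (plus strand, 250 bases), each written 5′ to 3′ on the gene's strand.
Col18a1: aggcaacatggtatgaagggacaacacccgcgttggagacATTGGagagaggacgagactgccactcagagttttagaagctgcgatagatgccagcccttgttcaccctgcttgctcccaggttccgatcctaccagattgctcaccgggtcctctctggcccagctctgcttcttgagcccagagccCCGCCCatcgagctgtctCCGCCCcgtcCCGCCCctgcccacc
Col13a1: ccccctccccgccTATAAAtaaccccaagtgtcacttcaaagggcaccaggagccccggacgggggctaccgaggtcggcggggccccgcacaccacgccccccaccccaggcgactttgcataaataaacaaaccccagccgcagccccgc
Col3a1: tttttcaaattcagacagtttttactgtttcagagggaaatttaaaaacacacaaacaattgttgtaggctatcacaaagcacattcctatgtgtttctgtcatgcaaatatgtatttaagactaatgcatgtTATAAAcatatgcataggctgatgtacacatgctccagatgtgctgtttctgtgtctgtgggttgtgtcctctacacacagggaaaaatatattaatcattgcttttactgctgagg
Capitals mark matches, on either strand, to the GC box GGGCGG, the CCAAT box CCAAT, the TATA box TATAAA or the ETS core AGGAAG. The Col18a1 stretch holds 3 matches to the GC box and 1 to the CCAAT box. At least 1 match to these occurs in 30.1% and 32.4% of 32851 promoter stretches of that length. The Col13a1 stretch holds 1 match to TATAAA, found in 7.4% of stretches of its length, and the Col3a1 stretch also holds 1, found in 12.4% of those of its length. Distance from the start was not part of the match, so these letters need not be working TATA boxes. None of the 3 stretches holds the ETS core. Their GC content is 60.8% for Col18a1, 66.4% for Col13a1 and 35.2% for Col3a1. These matches describe the letters and were not tied to the expression values by any test.

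Col18a1 had 746, 741 and 724 FPKM in the EC GFP+ libraries, against 479.9, 420.0 and 354 FPKM in EC GFP-. In cluster cells it had 409, 411 and 386 FPKM in HC GFP+, against 317, 370.1 and 309.9 FPKM in HC GFP-. The EC GFP+ libraries were the 3 highest of all 12, and the GFP+ and GFP- libraries did not overlap in either cell type. The log2 fold change with GFP was 0.83 ± 0.10 (SE) in endothelium (limma, adjusted p = 0.000538) and 0.28 ± 0.10 in cluster cells, which missed the threshold (adjusted p = 0.195).

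Col15a1 had 109, 87.2 and 111 FPKM in the EC GFP+ libraries, against 219, 209.8 and 165 FPKM in EC GFP-. In cluster cells it had 78.4, 87.0 and 72.6 FPKM in HC GFP+, against 135, 202 and 134 FPKM in HC GFP-. Every GFP+ library was below every GFP- library, also across the cell types. The log2 fold change was -0.94 ± 0.17 in endothelium (limma, adjusted p = 0.00469) and -0.95 ± 0.17 in cluster cells (adjusted p = 0.00885), and the difference between these effects was -0.01 ± 0.24 (adjusted p = 0.993). Both calls held under every alternative setting tried.

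As a description, the ratio of Col18a1 to Col15a1 within a library was 5.22, 4.73 and 5.32 in HC GFP+, against 2.35, 1.83 and 2.32 in HC GFP-. It was 6.82, 8.51 and 6.50 in EC GFP+, against 2.19, 2.001 and 2.14 in EC GFP-. The ranges of GFP+ and GFP- libraries were apart in both cell types. This follows from the separate values of the genes given above and is not a further result.

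The basement membrane network class has 6 members, of which 4 were tested. Col4a1 had 631, 605 and 642 FPKM in EC GFP+, against 547, 537 and 389.5 FPKM in EC GFP-. It had 364, 386 and 323 FPKM in HC GFP+, against 314, 414 and 313 FPKM in HC GFP-. The endothelial groups did not overlap but the log2 fold change of 0.37 ± 0.14 missed the threshold (limma, adjusted p = 0.115), and in cluster cells the groups overlapped with a log2 fold change of 0.05 ± 0.14 (adjusted p = 0.892).

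Col4a2 had 428, 404 and 421 FPKM in EC GFP+, against 313, 298 and 219 FPKM in EC GFP-. It had 215, 229.9 and 193 FPKM in HC GFP+, against 179, 237 and 174 FPKM in HC GFP-. The EC GFP+ libraries were all above EC GFP-, and the cluster groups overlapped. The log2 fold change was 0.61 ± 0.14 in endothelium (limma, adjusted p = 0.0189) and 0.13 ± 0.14 in cluster cells (adjusted p = 0.728). The endothelial call was lost when EC GFP+ replicate 1, EC GFP+ replicate 3 or EC GFP- replicate 3 was left out, with log2 fold changes of 0.45 to 0.81 over all settings.

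The genes Col4a1 and Col4a2 start on opposite strands, and their 300-base promoter windows share 78 bases. Their ratio within a library was 1.69, 1.68 and 1.67 in HC GFP+, against 1.76, 1.75 and 1.80 in HC GFP-. The ratio was 1.47, 1.499 and 1.52 in EC GFP+, against 1.75, 1.80 and 1.78 in EC GFP-. It was lowest in the 3 EC GFP+ libraries, next lowest in the 3 HC GFP+ libraries, and the GFP- libraries of both types covered the same narrow range.

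**Figure D2:**
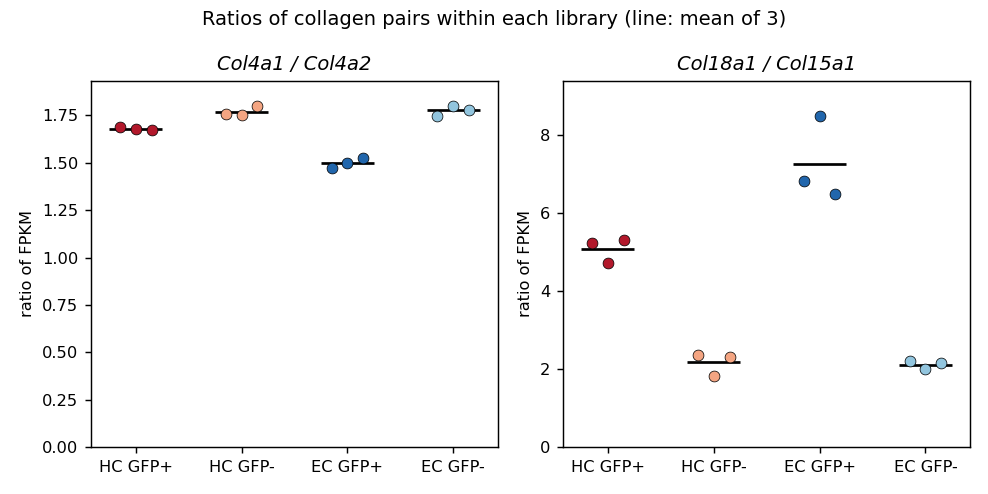
FPKM ratio of Col4a1 to Col4a2 (left) and of Col18a1 to Col15a1 (right) in each library, with the mean of 3 libraries as a line. The Col18a1 to Col15a1 ratio is between 4.73 and 8.51 in GFP+ libraries, against 1.83 to 2.35 in GFP- libraries.

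Col4a5 and Col4a6, which encode a further pair of type IV chains, were far less abundant. Col4a5 had 7.20, 4.88 and 3.91 FPKM in HC GFP+, against 13.6, 6.71 and 12 FPKM in HC GFP-, and 6.76, 6.94 and 8.24 FPKM in EC GFP+, against 10, 7.0 and 11.4 FPKM in EC GFP-. Both pairs of groups overlapped, and the log2 fold changes of -0.87 ± 0.26 in cluster cells and -0.31 ± 0.26 in endothelium missed the threshold (limma, adjusted p = 0.0940 and 0.472). Col4a6 averaged 1.48 ± 0.739 FPKM in HC GFP+, against 4.97 ± 2.31 FPKM in HC GFP-, and 1.52 ± 0.641 FPKM in EC GFP+, against 4.21 ± 1.84 FPKM in EC GFP- (SD, n = 3 each). Its groups did not overlap in either type, with log2 fold changes of -1.22 ± 0.38 and -1.01 ± 0.38 that also missed it (adjusted p = 0.110 and 0.101). Without HC GFP- replicate 2, Col4a5 and Col4a6 were called lower in cluster cells.

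Col13a1, Col23a1 and Col25a1 encode transmembrane collagens, which span the cell membrane with a collagenous part outside the cell. Col13a1 had 17.9, 16.8 and 15.3 FPKM in HC GFP+, against 7.91, 8.42 and 7.22 FPKM in HC GFP-. It had 19.0, 18.7 and 18.9 FPKM in EC GFP+, against 9.58, 12.2 and 7.22 FPKM in EC GFP-. Every GFP+ library was above every GFP- library. The log2 fold change was 0.997 ± 0.15 in cluster cells (limma, adjusted p = 0.00281) and 0.92 ± 0.15 in endothelium (adjusted p = 0.00214), and both calls held under every alternative setting tried. The difference between the effects was 0.07 ± 0.21 (adjusted p = 0.944).

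Col23a1 had 18.4, 18.4 and 18.6 FPKM in HC GFP+, against 20.4, 24.3 and 21.7 FPKM in HC GFP-. It had 22.6, 24.3 and 20.3 FPKM in EC GFP+, against 18.2, 19.4 and 13.8 FPKM in EC GFP-. GFP+ libraries were all below GFP- libraries in cluster cells and all above them in endothelium, and no library reached outside 13.8 to 24.3 FPKM. Neither log2 fold change passed the threshold, at -0.25 ± 0.12 in cluster cells and 0.37 ± 0.12 in endothelium (limma, adjusted p = 0.336 and 0.0645). Their difference of -0.62 ± 0.17 did not pass it either (adjusted p = 0.154).

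**Figure D3:**
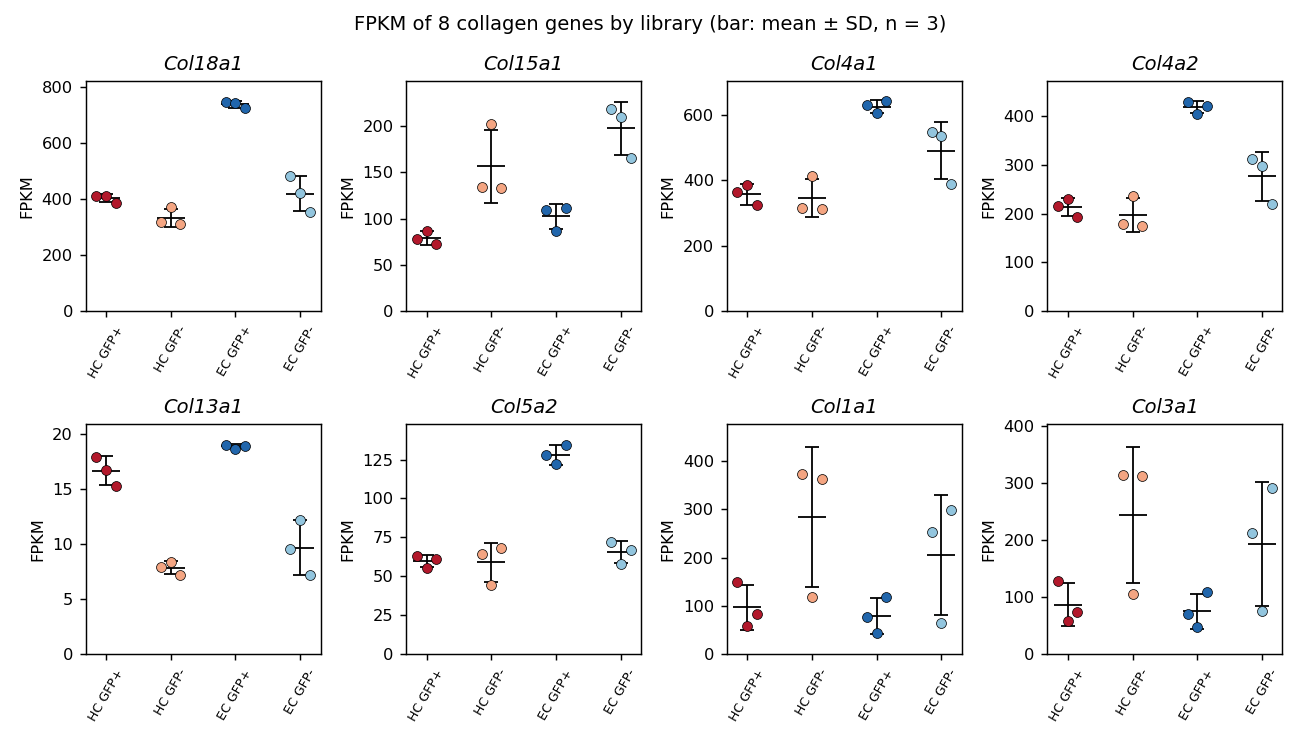
FPKM of 8 collagen genes in each library (points) with mean ± SD (n = 3) for HC GFP+, HC GFP-, EC GFP+ and EC GFP-. Col18a1 and Col5a2 stand highest in EC GFP+, Col13a1 is higher and Col15a1 lower in GFP+ than in GFP- libraries of both types, and Col1a1 and Col3a1 have a low replicate in each GFP- group.

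The fibrillar class has 11 members, of which 9 were tested, and a single call was made with GFP, Col5a2 in endothelium. Col5a2 encodes a chain of type V collagen, which is built into type I fibrils and helps to set their diameter. It had 128, 122 and 134 FPKM in EC GFP+, against 72.1, 58.2 and 66.9 FPKM in EC GFP-. It had 63.0, 55.4 and 61.3 FPKM in HC GFP+, against 64.2, 44.6 and 68.3 FPKM in HC GFP-. The EC GFP+ libraries stood alone at the top, and the other 3 populations overlapped with each other. The log2 fold change was 0.96 ± 0.14 in endothelium (limma, adjusted p = 0.00138) and 0.04 ± 0.14 in cluster cells (adjusted p = 0.915).

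Col5a1, whose chain assembles with that of Col5a2, had 17.2, 14.7 and 20.9 FPKM in EC GFP+, against 28.9, 12.4 and 37.2 FPKM in EC GFP-. It had 24.5, 13.5 and 17.5 FPKM in HC GFP+, against 49.1, 22.8 and 49.3 FPKM in HC GFP-. Both pairs of groups overlapped, with log2 fold changes of -0.43 ± 0.39 in endothelium and -1.04 ± 0.39 in cluster cells (limma, adjusted p = 0.514 and 0.194). The ratio of Col5a1 to Col5a2 was 0.120 to 0.155 in EC GFP+, against 0.213 to 0.556 in EC GFP-, and 0.244 to 0.389 in HC GFP+, against 0.511 to 0.765 in HC GFP-. In the annotation, Col5a2 is the next protein-coding gene after Col3a1 on chromosome 1.

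Col1a1, which encodes the main chain of type I collagen, had 150.1, 58.2 and 83.0 FPKM in HC GFP+, against 373, 118 and 363 FPKM in HC GFP-. It had 76.4, 43.9 and 118 FPKM in EC GFP+, against 254, 65.5 and 298 FPKM in EC GFP-. Replicate 2 was the lowest of each population, and in both types it brought the GFP- group into the range of the GFP+ group. The log2 fold changes of -1.48 ± 0.63 in cluster cells and -1.20 ± 0.63 in endothelium missed the threshold (limma, adjusted p = 0.260 and 0.238).

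Its partner Col1a2 had 102, 46.6 and 59.8 FPKM in HC GFP+, against 253, 84.3 and 271 FPKM in HC GFP-. In endothelium it had 56.6, 32.3 and 80.8 FPKM in EC GFP+, against 189, 53.1 and 236 FPKM in EC GFP-. The ratio of Col1a1 to Col1a2 stayed between 1.23 and 1.48 in all 12 libraries, so the pair moved together from library to library. Col1a2 had log2 fold changes of -1.43 ± 0.60 and -1.32 ± 0.60 in cluster cells and endothelium (limma, adjusted p = 0.246 and 0.173).

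Col3a1, the fibrillar collagen of soft and vascular connective tissue, had 129, 57.6 and 75.1 FPKM in HC GFP+, against 314, 107 and 312 FPKM in HC GFP-. It had 71.2, 47.2 and 109 FPKM in EC GFP+, against 213, 76.1 and 291 FPKM in EC GFP-. As for the type I genes, replicate 2 was lowest in every population and the groups overlapped. The log2 fold changes were -1.40 ± 0.55 in cluster cells and -1.22 ± 0.55 in endothelium (limma, adjusted p = 0.218 and 0.171). Together the 3 type I and III genes made up 11.2% to 22.7% of collagen FPKM in HC GFP+, against 17.9% to 42.5% in HC GFP-, and 5.59% to 12.2% in EC GFP+, against 10.5% to 34.6% in EC GFP-.

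Col2a1, Col9a1, Col9a2, Col9a3 and Col11a1 encode the collagens of cartilage. The highest value of each of these genes was in EC GFP- replicate 3. Col2a1 had 15.6, 12.2 and 21.9 FPKM in EC GFP+, against 29.7, 15.1 and 75.1 FPKM in EC GFP-, and 16.4, 7.53 and 8.78 FPKM in HC GFP+, against 25.5, 12.7 and 19.6 FPKM in HC GFP-. Col11a1 had 2.84, 2.24 and 3.62 FPKM in EC GFP+, against 3.60, 3.20 and 11.0 FPKM in EC GFP-, and 3.73, 2.33 and 2.38 FPKM in HC GFP+, against 5.95, 2.39 and 4.81 FPKM in HC GFP-. For both genes a single EC GFP- library carried much of its group mean, and the GFP+ and GFP- groups overlapped in both types.

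Col9a1 had 4.59, 2.85 and 6.57 FPKM in EC GFP+, against 10.6, 6.27 and 25.2 FPKM in EC GFP-, and 6.71, 4.42 and 4.01 FPKM in HC GFP+, against 15.6, 5.77 and 12.96 FPKM in HC GFP-. Col9a2 had 4.27, 4.79 and 8.69 FPKM in EC GFP+, against 10.4, 5.54 and 18.2 FPKM in EC GFP-, and 6.13, 3.95 and 4.86 FPKM in HC GFP+, against 9.42, 3.87 and 8.52 FPKM in HC GFP-. The third type IX gene followed the same outline at a lower level. Col9a3 had 2.08, 3.02 and 5.58 FPKM in EC GFP+, against 4.35, 3.53 and 18.1 FPKM in EC GFP-, and 4.18, 0.833 and 1.97 FPKM in HC GFP+, against 4.28, 1.497 and 4.59 FPKM in HC GFP-. None of these cartilage genes passed the threshold in any comparison, with adjusted p-values with GFP of 0.0963 for Col9a1 in endothelium and above that for the rest (limma).

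Type VI collagen forms beaded filaments around mesenchymal cells, and 3 of its 6 genes were tested. Col6a1 had 7.95, 3.66 and 4.62 FPKM in HC GFP+, against 17.4, 5.40 and 22.1 FPKM in HC GFP-, and 3.96, 2.46 and 6.43 FPKM in EC GFP+, against 11.8, 3.58 and 16.8 FPKM in EC GFP-. Col6a2 had 7.13, 3.77 and 5.28 FPKM in HC GFP+, against 17.6, 6.22 and 20.8 FPKM in HC GFP-, and 4.20, 2.06 and 5.82 FPKM in EC GFP+, against 12.7, 3.46 and 19.0 FPKM in EC GFP-. The 3 chains assemble into 1 molecule, and replicate 2 was the lowest library of every population for each of them. Col6a3 had 7.52, 4.05 and 7.0 FPKM in HC GFP+, against 23.7, 6.54 and 26.0 FPKM in HC GFP-, and 3.76, 1.93 and 5.76 FPKM in EC GFP+, against 9.31, 2.31 and 14.6 FPKM in EC GFP-. The GFP+ and GFP- groups overlapped for all 3, and their log2 fold changes of -1.29 to -1.18 in cluster cells and -1.16 to -0.83 in endothelium missed the threshold (limma).

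Col16a1, a fibril-associated collagen, had 3.89, 2.64 and 4.87 FPKM in HC GFP+, against 10.3, 4.97 and 13.2 FPKM in HC GFP-, and 4.67, 0.921 and 3.77 FPKM in EC GFP+, against 8.57, 3.28 and 10.2 FPKM in EC GFP-. Its groups were apart in cluster cells and overlapped in endothelium, and neither log2 fold change passed the threshold (limma, -1.07 ± 0.47 and -1.05 ± 0.47, adjusted p = 0.279 and 0.171). Col26a1 had 17.7, 11.9 and 11.4 FPKM in HC GFP+, against 29.6, 24.1 and 27.9 FPKM in HC GFP-, and 23.1, 16.4 and 18.6 FPKM in EC GFP+, against 34.9, 22.0 and 42.0 FPKM in EC GFP-. The cluster groups did not overlap and the endothelial groups did. Its log2 fold change was -0.96 ± 0.23 in cluster cells (limma, adjusted p = 0.0364) and -0.71 ± 0.23 in endothelium (adjusted p = 0.0634). The call in cluster cells was lost without a filter on low values, without HC GFP+ replicate 2 or 3, without any of the 3 HC GFP- libraries, and without EC GFP+ replicate 3 or EC GFP- replicate 1, with adjusted p-values up to 0.141 in these settings.

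The other 6 tested members, Col8a2, Col11a2, Col12a1, Col14a1, Col25a1 and Col27a1, had group means of 0.884 to 4.62 FPKM and passed no threshold. Their log2 fold changes with GFP ran from -0.99 for Col14a1 to 0.60 for Col11a2 in cluster cells, and from -0.78 for Col8a2 to -0.22 for Col27a1 in endothelium. Over all 29 tested members the log2 fold change with GFP was below 0 for 23 members in cluster cells and for 23 in endothelium, although most of these missed the threshold. The share of all tested genes below 0 was not taken, and their medians were 0.00 and -0.03. Members also varied together between libraries and are not independent. Their deviations from group means correlated with those of 18 mesenchyme and smooth muscle markers by -0.82 (Col23a1) to 0.99 (Col5a1), positively for most.

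**Figure D4:**
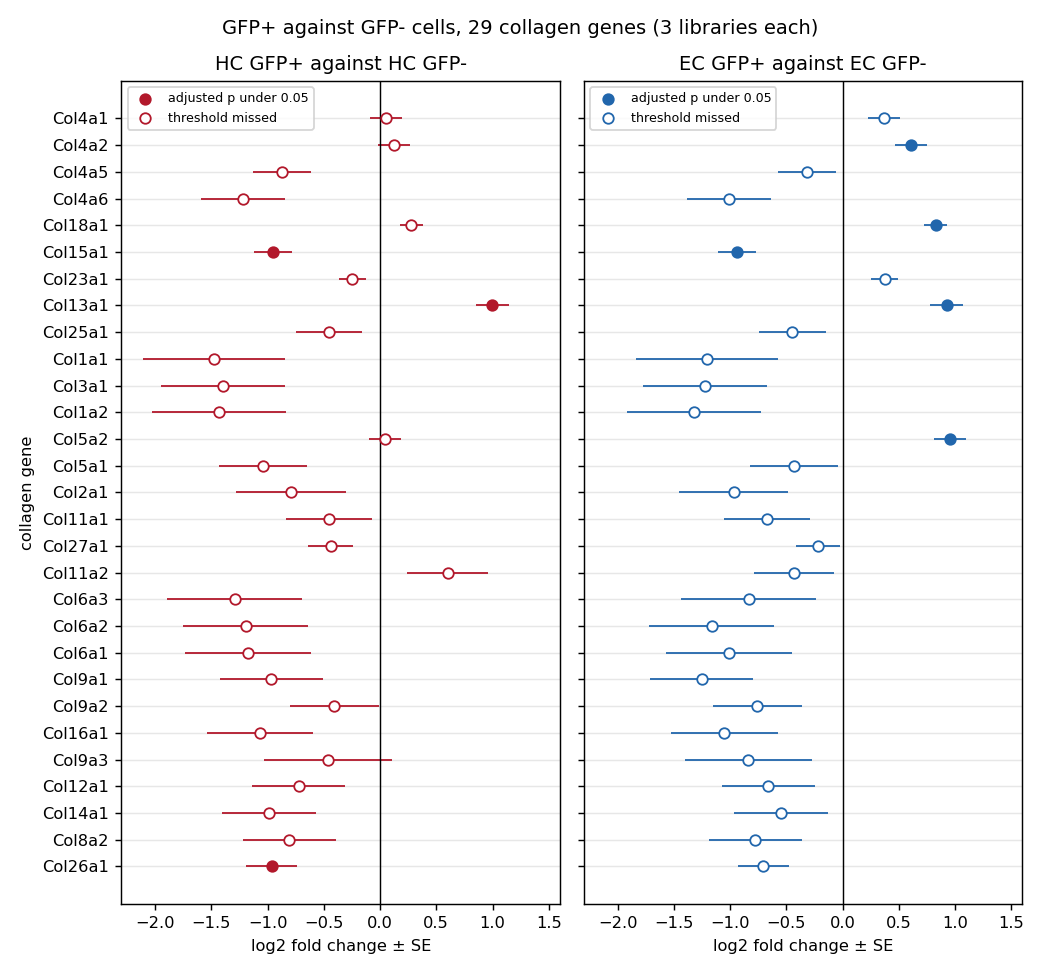
Log2 fold change (± SE, limma) of GFP+ against GFP- cells for the 29 tested collagen genes, in cluster cells (left) and endothelium (right), with filled points past an adjusted p of 0.05. Col13a1 and Col15a1 are filled on both sides, Col26a1 on the left, and Col4a2, Col18a1 and Col5a2 on the right.

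The levels of mesenchyme and smooth muscle markers are set beside those of the fibrillar, beaded filament and fibril-associated genes. The list holds 18 genes and no collagen, and its summed level was 171 to 313 FPKM in HC GFP+, against 229 to 606 FPKM in HC GFP-, and 216 to 322 FPKM in EC GFP+, against 174 to 672 FPKM in EC GFP-. All 18 reached FPKM 1 in some library of HC GFP+, HC GFP- and EC GFP-, and 16 did in EC GFP+. No defining marker was at 0 in its group mean. Pdgfra, a receptor of mesenchymal cells, averaged 4.66 FPKM in HC GFP+, against 9.99 FPKM in HC GFP-, and 3.88 FPKM in EC GFP+, against 9.29 FPKM in EC GFP-, and did not pass the test in either type. The matrix gene Lum averaged 18.6 FPKM in HC GFP+, against 65.9 FPKM in HC GFP-, which did not pass the test. Lum fell to 16.9 FPKM in EC GFP+, against 72.5 FPKM in EC GFP- (limma, log2 -1.89, adjusted p = 0.0470), a call lost in 14 of 20 alternative settings. The smooth muscle genes Acta2 and Tagln did not pass in endothelium, and Tagln averaged 38.3 FPKM in EC GFP+, against 37.1 FPKM in EC GFP-. Over the list, 1 gene was higher and 0 lower with GFP in cluster cells (Mfap5), and 2 were higher (Mfap5 and Fbn2) and 1 lower (Lum) in endothelium, with medians of -0.74 and -0.55 on the log2 scale. Over all tested genes, 2.98% were higher and 1.28% lower in cluster cells, and 6.96% were higher and 6.51% lower in endothelium.

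Replicate 2 was the lowest library of both GFP- populations for 21 of the 29 tested collagens and for 16 of the 18 mesenchyme markers. Of the 29 collagens, 13 were lowest in replicate 2 of all 4 populations, among them the type I, III, V and VI genes. These counts were not taken over all tested genes, so whether they are particular to collagens or to the markers was not tested. The basement membrane pair Col4a1 and Col4a2, both multiplexins, Col13a1 and Col23a1 were instead highest in replicate 2 of HC GFP-. The part of mesenchymal cells in the collagen values was not tested. Erythroid markers, 7 genes, summed to 776 to 1065 FPKM in HC GFP+, against 5828 to 9036 FPKM in HC GFP-, and to 875 to 2250 FPKM in EC GFP+, against 3145 to 7241 FPKM in EC GFP-, and their part was not tested either.

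**Figure D5:**
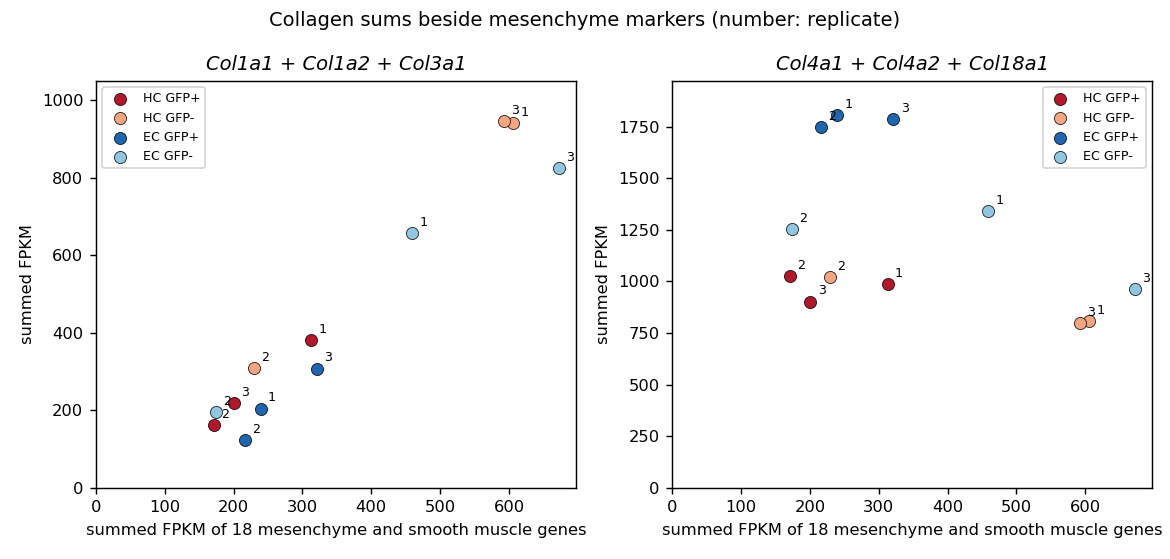
Summed FPKM of Col1a1, Col1a2 and Col3a1 (left) and of Col4a1, Col4a2 and Col18a1 (right) against the summed FPKM of 18 mesenchyme and smooth muscle genes, 1 point per library with its replicate number. On the left the libraries with the highest marker sums, replicates 1 and 3 of HC GFP- and EC GFP-, stand at the top. On the right the 3 EC GFP+ libraries stand at the top with marker sums of 216 to 322 FPKM.

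Cluster cells were then compared with endothelium. Among GFP+ cells no collagen gene was higher and 4 were lower in HC GFP+ than in EC GFP+, where 14.3% of all tested genes passed the threshold, 8.21% as higher and 6.09% as lower (limma). No member was higher at an unadjusted p under 0.05 either. The share of all tested genes at that unadjusted level was not taken, so counts at it, here and below, have no baseline. The 4 lower members were Col5a2 with a log2 fold change of -1.08 ± 0.14 (adjusted p = 0.000663), Col4a2 with -0.97 ± 0.14 (adjusted p = 0.00141), Col18a1 with -0.87 ± 0.10 (adjusted p = 0.000423) and Col4a1 with -0.81 ± 0.14 (adjusted p = 0.00352). For each the 3 HC GFP+ libraries were below the 3 EC GFP+ libraries, and the calls held under every alternative setting tried. This comparison and that of EC GFP+ with EC GFP- share the EC GFP+ libraries, so their calls for Col5a2, Col4a2 and Col18a1 are not independent.

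The type I and III genes had log2 fold changes of 0.20 to 0.31 with standard errors of 0.55 to 0.63 between HC GFP+ and EC GFP+. Col13a1 and Col15a1, which differed with GFP in both types, had log2 fold changes of -0.17 ± 0.15 and -0.36 ± 0.17 between the GFP+ populations and missed the threshold (limma, adjusted p = 0.490 and 0.189). The median was -0.15 over the tested members and 0.05 over all tested genes.

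Among GFP- cells no collagen gene passed the threshold in HC GFP- against EC GFP-, where 4.29% of all tested genes did, 2.36% as higher and 1.93% as lower (limma). At an unadjusted p under 0.05, Col23a1 was the 1 member higher and Col4a1, Col4a2 and Col18a1 were the 3 lower. Their log2 fold changes were 0.36 ± 0.12 for Col23a1, -0.50 ± 0.14 for Col4a1, -0.49 ± 0.14 for Col4a2 and -0.32 ± 0.10 for Col18a1 (adjusted p = 0.130, 0.0807, 0.0890 and 0.116). Without HC GFP- replicate 2, Col4a1 and Col4a2 were called lower, and without EC GFP- replicate 3, Col18a1 was as well.

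The GFP effects of the cell types were compared in the same model, as the effect in cluster cells minus that in endothelium. No collagen gene passed the threshold, where 0.527% of all tested genes did, 0.188% as higher and 0.339% as lower (limma). At an unadjusted p under 0.05, 0 members were higher and 4 were lower, namely Col5a2, Col18a1, Col23a1 and Col4a2. The share of all tested genes at that unadjusted level was not taken. The difference was -0.91 ± 0.20 for Col5a2 (adjusted p = 0.0742), -0.55 ± 0.15 for Col18a1 (adjusted p = 0.143) and -0.48 ± 0.20 for Col4a2 (adjusted p = 0.396). Col5a2 was called when libraries were scaled to an equal FPKM sum and without HC GFP- replicate 2.

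Genes that act on collagen were read from lists of processing, receptor and degradation genes. Of 40 listed processing gene symbols, 35 were in the expression table and 31 were tested. Of these, 7 were higher and 0 lower in EC GFP+ than in EC GFP- (limma), where 6.96% of all tested genes were higher and 6.51% lower. At an unadjusted p under 0.05, 8 were higher and 6 lower, a level for which no share of all genes was taken. P4ha3, a catalytic subunit of prolyl hydroxylase, averaged 26.3 ± 3.68 FPKM in EC GFP+, against 4.43 ± 1.15 FPKM in EC GFP- (SD, n = 3 each), a log2 fold change of 2.34 ± 0.19 (adjusted p = 2.46e-05). The lysyl hydroxylase Plod1 averaged 77.7 ± 9.24 FPKM in EC GFP+, against 46.1 ± 6.03 FPKM in EC GFP- (log2 0.74, adjusted p = 0.00133), and Plod3 averaged 80.4 ± 3.30 FPKM in EC GFP+, against 52.4 ± 1.09 FPKM in EC GFP- (log2 0.61, adjusted p = 0.00348). Tll1, a proteinase that trims procollagen, averaged 12.4 ± 0.907 FPKM in EC GFP+, against 4.95 ± 1.93 FPKM in EC GFP- (log2 1.22, adjusted p = 0.00407).

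In HC GFP+ against EC GFP+, 0 processing genes were higher and 10 were lower, where 8.21% of all tested genes were higher and 6.09% lower, and at an unadjusted p under 0.05 these counts were 1 and 18 (limma). Sparc, which encodes a collagen-binding matrix protein, averaged 478 ± 16.1 FPKM in HC GFP+, against 923 ± 21.0 FPKM in EC GFP+ (SD, n = 3 each), a log2 fold change of -0.95 ± 0.11 (limma, adjusted p = 0.000292). Bmp1, another procollagen proteinase, P4ha3 and the chaperone Fkbp10 had log2 fold changes of -0.80, -1.59 and -0.75. In HC GFP+ against HC GFP-, 2.98% of all tested genes were higher and 1.28% lower. The only processing gene called there was the collagen chaperone Serpinh1, at 478 ± 13.6 FPKM in HC GFP+, against 618 ± 5.60 FPKM in HC GFP- (limma, log2 -0.37, adjusted p = 0.0445). That call was lost in 13 of 20 alternative settings, among them the removal of any HC library. In HC GFP- against EC GFP-, 0 processing genes were higher and 2 lower (3 and 7 at an unadjusted p under 0.05). Over all tested genes, 2.36% were higher and 1.93% lower there. The calls were for Sparc (limma, log2 -0.55, adjusted p = 0.0185) and the collagen galactosyltransferase Colgalt2 (log2 -0.57, adjusted p = 0.0370). The Sparc and Colgalt2 calls were lost in 5 and 11 of 20 alternative settings.

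Of 12 receptor genes 8 were tested. The adhesion receptor Gpr56, which binds type III collagen, averaged 63.8 ± 12.3 FPKM in HC GFP+, against 7.40 ± 1.17 FPKM in HC GFP- (log2 2.94, adjusted p = 1.29e-05), and 11.57 ± 1.89 FPKM in EC GFP+, against 6.00 ± 1.54 FPKM in EC GFP- (log2 0.86, adjusted p = 0.0122). Itgb1, the common beta chain of the collagen-binding integrins, averaged 405 ± 12.5 FPKM in EC GFP+, against 295 ± 27.2 FPKM in EC GFP- (log2 0.46, adjusted p = 0.00355). In HC GFP+ against EC GFP+, Gpr56 and the inhibitory collagen receptor Lair1 were higher (log2 2.36 and 1.75), and Itga1 and Itgb1 were lower (log2 -0.85 and -0.43). Lair1 stood at 2.53, 1.08 and 6.36 FPKM in HC GFP+, and the macrophage marker Csf1r at 85.8, 26.3 and 164 FPKM in the same 3 libraries. The part of macrophages in the Lair1 value was not tested. Of 15 degradation genes 9 were tested, and the gelatinase Mmp2 was higher with GFP in cluster cells (109 ± 2.92 FPKM in HC GFP+, against 81.7 ± 1.36 FPKM in HC GFP-) and in endothelium (186 ± 6.28 FPKM in EC GFP+, against 75.8 ± 4.63 FPKM in EC GFP-), with log2 fold changes of 0.42 and 1.28 (adjusted p = 0.00293 and 7.94e-07). Timp2 and Mmp14 were higher and the collagen-cleaving cathepsin Ctsk was lower in EC GFP+ than in EC GFP- (log2 1.28, 0.36 and -1.07), calls that were lost in 6, 8 and 3 of the alternative settings.

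Marker genes of other cell types are set beside these values. Of 12 endothelial markers, 8 were higher and 0 lower in EC GFP+ than in EC GFP-, and 0 were higher and 8 lower in HC GFP+ than in EC GFP+ (limma), beside the shares of all tested genes given above. Of the 8 calls with GFP in endothelium, 5 were lost in 2 to 11 of 20 alternative settings (Eng, Cdh5, Kdr, Sox17 and Pecam1). At an unadjusted p under 0.05 these counts were 9 and 0 with GFP in endothelium and 0 and 10 between the GFP+ populations. Their summed level was 2871 to 3213 FPKM in HC GFP+, 2394 to 3222 FPKM in HC GFP-, 4119 to 4396 FPKM in EC GFP+ and 2656 to 3427 FPKM in EC GFP-. Tek, an endothelial receptor kinase, averaged 178 ± 6.30 FPKM in EC GFP+, against 78.6 ± 17.1 FPKM in EC GFP- (SD, n = 3 each, log2 1.19), and Cdh5, which encodes CD144, had a log2 fold change of 0.48, set beside 0.83 for Col18a1 and 0.96 for Col5a2 in the same comparison. The part of the endothelial share of RNA in the collagen values was not tested. Of 8 listed macrophage marker symbols, 7 were in the expression table, and all 7 were tested. All 7 were higher in HC GFP+ than in EC GFP+, where 8.21% of all tested genes were (limma). All 7 were also higher in HC GFP- than in EC GFP-, where 2.36% of all tested genes were. The medians of the 7 were 4.54 and 4.64 on the log2 scale. Their summed level was 194 to 1234 FPKM in HC GFP+, against 6.62 to 27.9 FPKM in EC GFP+, and 194 to 630.4 FPKM in HC GFP-, against 8.51 to 14.04 FPKM in EC GFP-. Their part in the values of cluster cells against endothelium was not tested.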

How the data were processed

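The authors deposited FPKM values per gene symbol for 12 libraries of poly(A)-selected RNA. The submitters' processing notes name Cufflinks, featureCounts, edgeR, DESeq and genome build mm9, without versions or roles. The aligner, annotation, strand setting and scaling were not given in the sources used here. These FPKM are not multiples of whole reads, so no count test was run and depth is unknown, and an exact 0 may be a failed estimate.

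Genes with at least 3 libraries at FPKM 1 or above were tested with limma 3.58.1 (R 4.3.3) on the log2(FPKM + 1) scale. A single model of 4 group means was fitted to all 12 libraries, with 8 residual degrees of freedom, empirical Bayes moderation and an intensity trend. Two-sided p-values were adjusted by Benjamini-Hochberg over the 13278 tested genes of each of 5 comparisons, and the threshold was 0.05. The code was tested on simulated data. Pools are labelled as independent biological samples, and the p-values reflect how far such pools differ.

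Collagens with a group mean of 5 FPKM or more, or past the threshold in any comparison, are given in every library. Up to 4 genes past the threshold are named from each accompanying list. The members and gene lists were chosen with earlier results of these data known, so counts over them are descriptions. Same-numbered libraries correlated in their deviations from group means by -0.0845 to 0.270 over all tested genes, and different-numbered libraries by -0.221 to 0.218. The highest same-numbered values were between replicate 2 libraries, 0.270 for HC GFP+ with HC GFP- and 0.200 for HC GFP- with EC GFP-. Numbers were not treated as pairs in the main model, and these ranges do not exclude pairing. Alternatives were another pseudocount (0.1), no filter, a stricter filter (mean FPKM of 5), equal-sum and quantile scaling, no intensity trend, only the groups compared, a replicate block, and each library left out. Sequences are from RefSeq tables of GRCm38.p6, a build other than that of the files, and protein sequences were not used here.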

Additional observations from a re-analysis of the deposited data

Results flagged for a closer look

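For 70 of all tested genes, no collagen among them, the GFP effect in cluster cells differed from that in endothelium by the test of the difference itself (limma, adjusted over all tested genes). Those in the lists of collagen processing, receptors, degradation and mesenchyme were Gpr56, Mmp2, P4ha3 and Fbn2, and those in the list of blood markers were Myb and Spn, with differences of 2.08 and 1.49 (adjusted p = 0.00987 and 0.0134). Gpr56 had a difference of 2.08 ± 0.26 (SE, adjusted p = 0.00638), with 53.5, 77.4 and 60.3 FPKM in HC GFP+, against 6.57, 8.74 and 6.90 FPKM in HC GFP-, and 9.80, 13.6 and 11.3 FPKM in EC GFP+, against 5.43, 4.82 and 7.75 FPKM in EC GFP-. Mmp2 had a difference of -0.867 ± 0.087 (adjusted p = 0.00236), with 106, 111 and 110.5 FPKM in HC GFP+, against 83.2, 80.5 and 81.3 FPKM in HC GFP-, and 179, 187 and 191 FPKM in EC GFP+, against 81.2, 73.3 and 73.0 FPKM in EC GFP-. Both calls held in all 19 alternatives that could be fitted.

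P4ha3 had a difference of -1.75 ± 0.27 (limma, adjusted p = 0.0181), with 8.60, 6.70 and 8.88 FPKM in HC GFP+, against 6.05, 3.63 and 5.53 FPKM in HC GFP-, and 23.7, 24.7 and 30.5 FPKM in EC GFP+, against 3.56, 3.99 and 5.73 FPKM in EC GFP-. Its adjusted p rose to between 0.0512 and 0.0645 when HC GFP+ replicate 2, HC GFP- replicate 1 or 3, EC GFP+ replicate 2 or 3, or EC GFP- replicate 1 was left out. The elastic fibre gene Fbn2, which stands in the mesenchyme list, had a difference of -0.954 ± 0.18 (adjusted p = 0.0425), with 25.2, 21.8 and 18.02 FPKM in HC GFP+, against 25.7, 20.4 and 26.7 FPKM in HC GFP-, and 30.4, 30.8 and 31.6 FPKM in EC GFP+, against 17.6, 16.6 and 18.1 FPKM in EC GFP-. This call was lost in 13 of 19 alternatives, with adjusted p-values up to 0.120.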

How the results depend on the processing

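Each comparison was refitted under up to 20 alternatives. Of 77 gene results past the threshold, 48 stayed past it with the same direction in every alternative, and 0 reversed. The calls of Col13a1 and Col15a1 with GFP in both types, of Col18a1 and Col5a2 in endothelium, and of the 4 collagens lower in HC GFP+ than in EC GFP+ held throughout. With each library left out in turn, members called lower ranged from 1 to 3 in HC GFP+ against HC GFP- (main value 2), from 1 to 10 in EC GFP+ against EC GFP- (main value 1, with 10 only without EC GFP- replicate 2), from 0 to 3 in HC GFP- against EC GFP- (main value 0) and from 0 to 1 for the difference of GFP effects (main value 0). In the same order, calls over all tested genes in either direction ranged from 315 to 653, 977 to 2206, 91 to 699 and 23 to 77. The cause was not tested. Without a filter on low values 1 member was lower in HC GFP+ than in HC GFP-, with more genes in the adjustment. There 519 of 21877 genes passed in either direction.

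Scaling to an equal FPKM sum moved the median log2 fold change of all genes in EC GFP+ against EC GFP- to 0.14, with -0.03 as deposited, and added calls for Col4a1 and Col23a1 as higher. It also moved the median of all genes in HC GFP- against EC GFP- to 0.14, with 0.01 as deposited. For the difference of GFP effects it gave -0.10, with 0.04 as deposited, and called 1 member lower, Col5a2.

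The replicate numbers are not shown to pair the pools. A replicate block called 10 members lower in HC GFP+ than in HC GFP-, 9 lower in EC GFP+ than in EC GFP- and 1 lower, Col5a2, for the difference of GFP effects. Over all 13278 tested genes it called 625, 1784 and 71 in either direction. The collagen genes added with the block in both types were Col1a1, Col1a2, Col3a1, Col4a6, Col6a2 and Col16a1, in cluster cells also Col5a1 and Col6a3, and in endothelium also Col9a1, Col23a1 and Col26a1. Col23a1 was added there as higher.

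With 3 pools per population, standard errors of the type I and III genes were 0.55 to 0.63 on the log2 scale, against 0.10 for Col18a1. Changes of 0.83, as called for Col18a1, could thus be missed in the type I and III genes. The smallest change that could be called was not computed.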

Other observations

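Mfap5, which encodes a microfibril protein and stands in the mesenchyme list, averaged 4.93 ± 1.20 FPKM in HC GFP+, against 0.887 ± 0.227 FPKM in HC GFP-, and 10.5 ± 1.11 FPKM in EC GFP+, against 1.09 ± 0.323 FPKM in EC GFP- (SD, n = 3 each). The log2 fold change with GFP was 1.64 ± 0.18 in cluster cells and 2.46 ± 0.18 in endothelium (limma, adjusted p = 0.000498 and 1e-05). Over all tested genes, 2.98% were higher and 1.28% lower with GFP in cluster cells, and 6.96% were higher and 6.51% lower in endothelium. Over the whole list of 18 genes, 1 was higher and 0 lower with GFP in cluster cells, and 2 were higher and 1 lower in endothelium, with medians of -0.74 and -0.55 on the log2 scale. At an unadjusted p under 0.05, 1 was higher and 4 lower in cluster cells, and 2 were higher and 6 lower in endothelium. The share of all tested genes at that unadjusted level was not taken.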
